A study of Homo sapiens with 5 samples.

Results

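The 42 genes described here encode the chaperones of the human cytosol and their helpers: HSP90 and HSP70 with their co-chaperones, J-domain proteins, a small heat shock protein, the heat shock factors, the CCT chaperonin and prefoldin. They were chosen by name from the 24497 gene rows of the deposited count table, and all 42 were present in it. The cells were HEK293, an established cell line of human embryonic kidney origin, grown in DMEM with fetal calf serum and given no treatment that the labels name. Material from 100 of 1000 lysed cells went into each library, which was primed with oligo-dT and kept only the 5' ends of transcripts. Batch A comprised 2 libraries and batch B comprised 3. They are named here by batch and the number that ends the deposited column, as A2 and A3 and as B1, B2 and B3. The labels do not say whether libraries came from separate cultures, so the p-values reflect how far single libraries vary, and part of that variation may be technical.

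HSP70 proteins bind short hydrophobic stretches of unfolded chains in a cycle driven by ATP. J-domain proteins start that cycle by stimulating hydrolysis, and nucleotide exchange factors end it by releasing ADP. HSP90 receives partly folded clients, among them kinases and steroid receptors, from HSP70 through the adaptor STIP1. Prefoldin passes nascent actin and tubulin to CCT, a double ring of 8 different subunits that encloses the chain while it folds. When unfolded proteins accumulate, the transcription factor HSF1 binds heat shock elements, inverted repeats of GAA, in front of many of these genes.

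Gene counts came to 373687 to 803168 per library, with B1 the shallowest and A3 the deepest. A2, with 686883 counts, and B3, with 685181, had nearly the same depth. Spike-in RNA, which the labels name for every library, had 1785 and 2127 counts in batch A and between 1 and 19 in batch B. All 8 markers fixed for HEK293 had counts in every library, from 8 counts over all libraries for PAX2 to 1473 for VIM. Of 12 markers of other cell types 9 had a row in the table. Their summed level was 7.28 and 13.7 CPM (the count scaled to the same total of gene counts in each library) in batch A and 16.1 to 27.7 CPM in batch B, and COL1A1 had the highest total, 34 counts. CD3E, VWF, COL1A2 and ALB were at 0 in all libraries. The part of the spike-ins and of these genes in the differences between batches was not tested.

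Promoters are shown here for the near-identical pair HSPA1A and HSPA1B, whose counts were far apart, for HSPB1, which rose between batches, and for HSPA8 and CHORDC1, which held the most matches to the heat shock element letters. Each line gives the 250 bases before the gene's start, 5' to 3', from RefSeq on GRCh38.p14, a later build than that of the deposited counts. Capitals mark the letters GAANNTTC or TTCNNGAA, in which neighbouring GAA repeats lie in opposite directions, and overlapping matches merge into a longer run.
HSPA1A (GRCh38.p14, chr6:31815293-31815542, + strand): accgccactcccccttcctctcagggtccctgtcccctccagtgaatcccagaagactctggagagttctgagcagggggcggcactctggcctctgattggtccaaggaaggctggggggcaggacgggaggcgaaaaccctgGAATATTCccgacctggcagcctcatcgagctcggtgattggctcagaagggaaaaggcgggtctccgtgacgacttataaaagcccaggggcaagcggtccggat
HSPA1B (GRCh38.p14, chr6:31827488-31827737, + strand): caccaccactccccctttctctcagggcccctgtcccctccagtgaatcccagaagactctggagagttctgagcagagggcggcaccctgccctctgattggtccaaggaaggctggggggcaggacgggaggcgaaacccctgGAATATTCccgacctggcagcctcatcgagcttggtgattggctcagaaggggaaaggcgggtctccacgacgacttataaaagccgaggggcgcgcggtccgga
HSPB1 (GRCh38.p14, chr7:76302423-76302672, + strand): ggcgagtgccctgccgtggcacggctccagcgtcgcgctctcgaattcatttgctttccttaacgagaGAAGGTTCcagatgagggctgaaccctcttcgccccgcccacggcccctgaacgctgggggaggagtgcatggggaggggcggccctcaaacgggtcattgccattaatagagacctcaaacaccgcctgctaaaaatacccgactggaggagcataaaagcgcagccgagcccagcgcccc
HSPA8 (GRCh38.p14, chr11:123062137-123062386, - strand): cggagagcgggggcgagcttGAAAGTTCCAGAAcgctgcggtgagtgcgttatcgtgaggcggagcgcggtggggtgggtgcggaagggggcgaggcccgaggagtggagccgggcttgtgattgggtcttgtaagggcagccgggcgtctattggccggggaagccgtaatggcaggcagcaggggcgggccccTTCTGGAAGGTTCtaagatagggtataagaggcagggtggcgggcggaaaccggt
CHORDC1 (GRCh38.p14, chr11:90223050-90223299, - strand): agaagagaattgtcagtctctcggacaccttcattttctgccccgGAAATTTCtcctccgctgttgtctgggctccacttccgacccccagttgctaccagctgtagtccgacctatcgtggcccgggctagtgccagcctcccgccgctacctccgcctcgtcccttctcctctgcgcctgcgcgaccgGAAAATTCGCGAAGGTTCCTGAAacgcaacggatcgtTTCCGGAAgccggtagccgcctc

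Of the 42 genes, 34 matched a promoter sequence by symbol. GAANNTTC or TTCNNGAA, searched on both strands, occurred in 9 of the 34 (26.5%) and in 11.7% of all 27305 promoter windows of that length. The 9 genes were CHORDC1, HSPA1A, HSPA1B, HSPA8, DNAJA1, DNAJB6, HSPB1, TCP1 and PFDN6. A GAANNTTC and a TTCNNGAA that overlap by 3 bases, so that 3 repeats alternate, occurred in CHORDC1, HSPA8 and DNAJB6 and in 0.439% of all windows. TATAAA occurred in 3 of the 34 genes, namely HSPA1A, HSPA1B and HSF2, against 11.1% of all windows. The windows of HSP90AA1, HSP90AB1, DNAJB1 and HSPH1 held neither short motif, which says only that these letters were not found there.

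All 42 genes together took 1.48% of gene counts in A2, 1.42% in A3, 1.55% in B1, 1.5% in B2 and 1.49% in B3. HSP90 with its co-chaperones and CCT took the most counts. By CPM, HSP90AA1 ranked 66th among all gene rows, HSPA8 107th, HSP90AB1 121st, PTGES3 163rd and CCT7 168th by the mean over libraries. HSPA1A was the lowest of the 42, at rank 14021. Levels of genes are given both by CPM and per kb of transcript. The labels describe selection of 5' ends, for which counts need not grow with length, and division by length then raises short transcripts such as PFDN5, of 478 bases. Orders that differ between the scales are therefore uncertain. Per kb PFDN5 was highest at 1209 CPM per kb, followed by PTGES3 at 638, HSPA8 at 543, CCT7 at 479, HSP90AA1 at 440 and HSPB1 at 432.

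**Figure D1:**
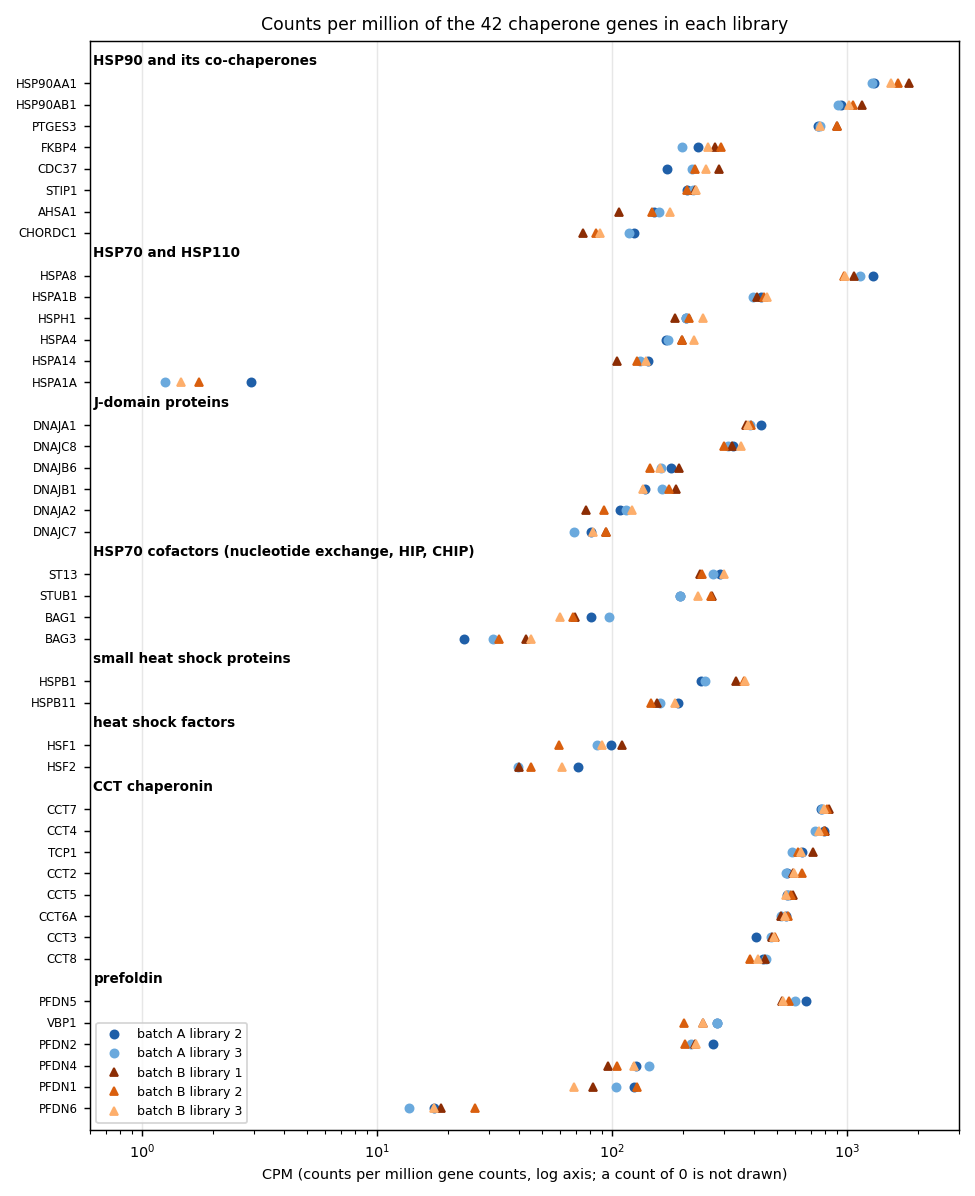
CPM of each of the 42 genes in each library on a log axis, grouped by role, with circles for batch A and triangles for batch B. Most genes sit within a narrow band over the libraries, and HSPA1A lies at 1.47 CPM on average against 428 CPM for HSPA1B.

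The labels define no comparison other than that of the batches, whose purpose they do not state. HSPB1, a small heat shock protein that holds unfolded proteins in oligomers, rose 1.49-fold in batch B. HSP90AA1, the stress-inducible HSP90 of the cytosol, rose 1.32-fold, and STUB1, the ubiquitin ligase CHIP that marks clients of HSP70 and HSP90 for degradation, rose 1.31-fold. No other member passed the test, and none was called as lower. The test was the quasi-likelihood F test of edgeR, with p adjusted over all genes after Benjamini and Hochberg. It called 3 of 41 tested members, against 4.2% of all 9215 tested genes. Those 3 were among the 2.15% of genes called as higher, and 2.05% of genes were called as lower. That was 198 genes higher and 189 lower, which became 110 higher and 193 lower with trends in GC content and transcript length removed. An unadjusted p under 0.05 was found for 11 of the 41 members (26.8%) and for 16.4% of all tested genes. HSPA1A, with 5 counts in all, did not pass the filter on low counts. The median log2 fold change was 0.05 over the 41 tested members and 0.00 over all tested genes, with 23 members above and 18 below 0.

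In 13 of the 41 tested members (31.7%) the CPM of all batch B libraries exceeded both batch A libraries, and in 6 (14.6%) it was below both. Among all tested genes these shares were 13.5% and 17.8%. DESeq2's Wald test on the same genes called 0 of the 41 members, against 0.704% of the 5820 genes it gave an adjusted p. By direction that was 0.498% higher and 0.206% lower. A gene without an adjusted p could not be called, so fewer than 41 members may have been open to a call. In that fit 6 members had an unadjusted p under 0.05, against 5.52% of all genes. On all rows with a count DESeq2 called HSPB1 alone among the members, and 104 of the 5288 genes with an adjusted p.

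**Figure D2:**
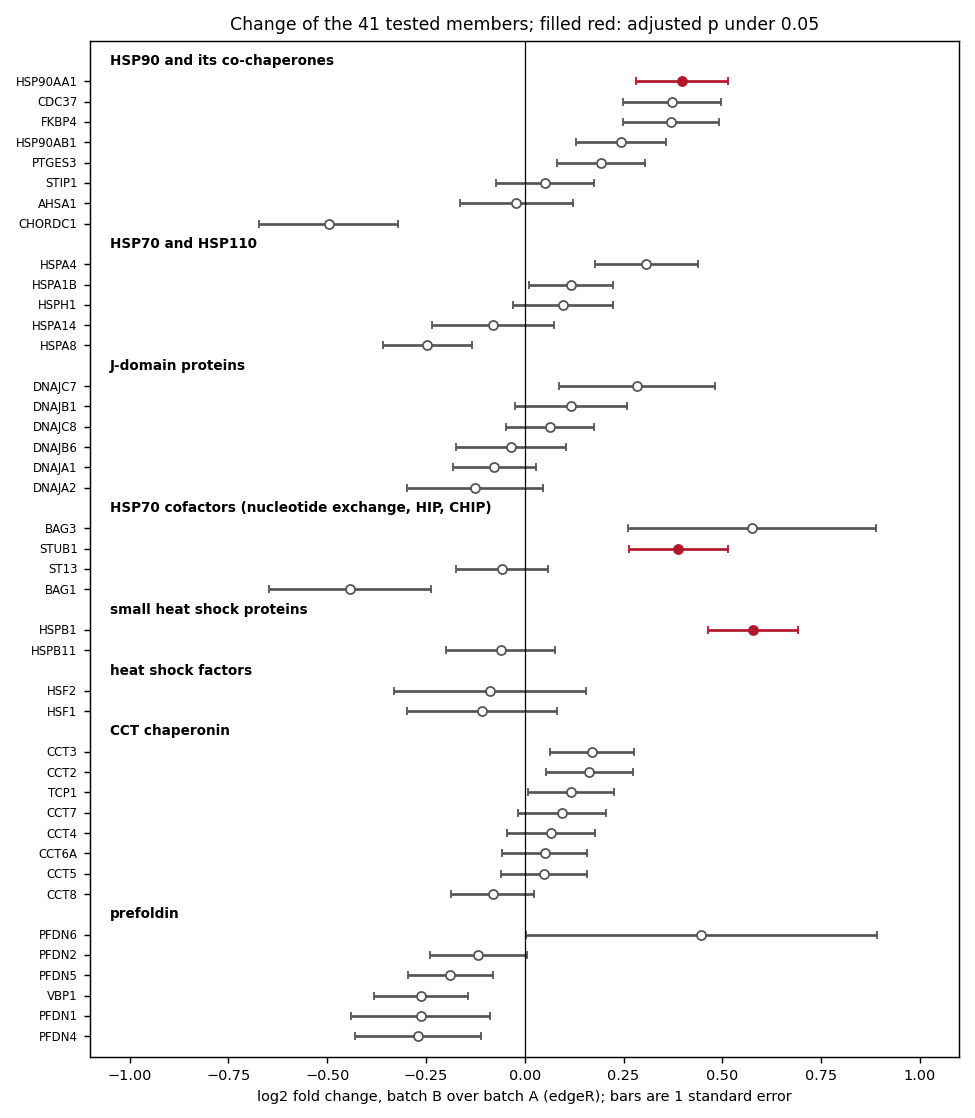
Log2 fold change of batch B over batch A for the 41 tested members by role, with bars of 1 standard error from edgeR. Filled red points mark HSPB1, HSP90AA1 and STUB1, the members with an adjusted p under 0.05, and 5 of the 6 prefoldin subunits lie below 0.

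HSPB1 had 164 counts in A2, 199 in A3, 125 in B1, 209 in B2 and 252 in B3. As levels these were 239 and 248 CPM against 335, 363 and 368 CPM. All batch B libraries lay above both batch A libraries, and the groups were separated by more than the range within either. The mean of batch A was 243 ± 6.37 CPM (SD, n = 2), and that of batch B was 355 ± 18.0 CPM (SD, n = 3). The log2 fold change was 0.58 (SE 0.11, edgeR adjusted p = 7.52e-05). It was 0.57 to 0.60 when each library was left out in turn, and the call was kept each time (edgeR adjusted p up to 0.0154). At nearly equal depth, B3 held 252 counts and A2 held 164. The 2 pseudogene rows of HSPB1 held 24 counts against 949 for the gene itself.

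HSPB1 transcripts are rich in G and C, at 62.2%. Across the 8615 tested genes with a GC value the median log2 fold change was 0.15 over the 2154 genes of highest GC and -0.07 over the 2154 genes of lowest GC. With trends in GC content and transcript length removed, which was added once results were known, HSPB1 was at 0.39 (edgeR adjusted p = 0.0243). HSPB11, which carries a small heat shock name but is a subunit of the intraflagellar transport machinery, had 131 and 128 counts in A2 and A3 against 58, 84 and 127 in B1, B2 and B3, with overlapping levels of 159 to 191 and 146 to 185 CPM.

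HSP90AA1 had 894 counts in A2, 1024 in A3, 686 in B1, 943 in B2 and 1052 in B3. Its level was 1302 and 1275 CPM in batch A against 1836, 1639 and 1535 CPM in batch B, and the groups did not overlap. The means were 1288 ± 18.8 CPM (SD, n = 2) and 1670 ± 153 CPM (SD, n = 3). Within batch B the level was highest in the shallowest library and lowest in the deepest. B3 had 1.53 times the counts of B1 for HSP90AA1, and 2.02 times for HSPB1, where gene counts in all were 1.83 times as many. The log2 fold change was 0.40 (SE 0.12, edgeR adjusted p = 0.0247), and 0.45 with GC and length trends removed (edgeR adjusted p = 0.00855). The call was lost without A2 (edgeR adjusted p = 0.18), A3 (0.316), B1 (0.0844) or B2 (0.162), with log2 fold changes of 0.31 to 0.44 in those fits. Within batches, chi-square per degree of freedom, which is about 1 if counts vary by sampling alone, was 4.5 for HSP90AA1 and 0.308 for HSPB1, and its median over the tested members was 1.05. The edgeR fit pooled the spread over genes of like abundance, so that the larger spread of HSP90AA1 itself did not enter its test.

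HSP90AB1, the constitutive HSP90 of the cytosol, had 645 and 732 counts in A2 and A3 against 432, 610 and 699 in B1, B2 and B3. Its level was 939 and 911 CPM against 1156, 1060 and 1020 CPM, with every batch B library above batch A. The log2 fold change of 0.24 (SE 0.11) did not pass the test (edgeR adjusted p = 0.24). Within each library, the ratio of HSP90AA1 to HSP90AB1 counts does not depend on scaling. It was 1.39 and 1.4 in batch A and 1.59, 1.55 and 1.51 in B1, B2 and B3, and the 95% exact binomial intervals of all 5 overlapped, running from 1.25 to 1.54 in A2 and from 1.41 to 1.8 in B1. Intervals cover counting error only.

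The co-chaperones of HSP90 had log2 fold changes on both sides of 0. FKBP4, an immunophilin of steroid receptor complexes, stood at 231 and 198 CPM in A2 and A3 against 273, 290 and 255 CPM in B1, B2 and B3. CDC37, the adaptor for protein kinases, stood at 170 and 218 CPM against 284, 224 and 250 CPM. In both the libraries of the batches did not overlap, and both narrowly missed the threshold, at log2 fold changes of 0.37 each (edgeR adjusted p = 0.0518 and 0.0606). Of 15 alternative fits, 2 called FKBP4 and 1 called CDC37. Both were called when only genes with a mean count of at least 20 were tested (edgeR adjusted p = 0.0178 and 0.0233), and FKBP4 also without B3 (0.028). With DESeq2 the adjusted p was 0.668 for both. With GC and length trends removed they were at 0.23 and 0.24 (edgeR adjusted p = 0.371 and 0.349).

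CHORDC1, a co-chaperone with zinc-binding CHORD domains, had the lowest log2 fold change of the 41 tested members. It had 85 and 95 counts in A2 and A3 against 28, 49 and 61 in B1, B2 and B3, or 124 and 118 CPM against 74.9, 85.1 and 89.0 CPM, so that every batch B library was below batch A. Its log2 fold change of -0.50 (SE 0.18) did not pass the test (edgeR adjusted p = 0.086). Of 15 alternative fits 1 called it. That was after all libraries were thinned once, at random, to the depth of the shallowest, at -0.75 (edgeR adjusted p = 0.0412). With GC and length trends removed it was at -0.40 (edgeR adjusted p = 0.234), and with DESeq2 at -0.50 (adjusted p = 0.718). PTGES3, the co-chaperone p23 that stabilizes the closed form of HSP90, was the most abundant of the co-chaperones, at 754 and 766 CPM in A2 and A3 against 907, 900 and 765 CPM in B1, B2 and B3. The remaining co-chaperones, STIP1 and AHSA1, had log2 fold changes of 0.05 and -0.02. STIP1 stood at 208 to 226 CPM over all libraries. AHSA1, the activator of the HSP90 ATPase, varied more within batch B, with 107 CPM in B1 and 177 CPM in B3.

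Summed over the 8 genes, HSP90 and its co-chaperones stood at 3878 and 3866 CPM in A2 and A3 against 4862, 4555 and 4317 CPM in B1, B2 and B3. HSP90AA1 and HSP90AB1 make up most of that sum, and within batch B it was lowest in the deepest library, as they were.

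HSPA8, the constitutive HSP70 HSC70, stood on the other side of 0 from the HSP90 genes. It had 884 and 914 counts in A2 and A3 against 400, 555 and 673 in B1, B2 and B3, or 1287 and 1138 CPM against 1070, 964 and 982 CPM. The batches did not overlap, but the log2 fold change of -0.25 (SE 0.11) did not pass the test (edgeR adjusted p = 0.229). With library totals in place of TMM scaling it was called, at -0.27 (edgeR adjusted p = 0.0489). Without A2 it was -0.13 (edgeR adjusted p = 0.829). Its 10 pseudogene rows held 21 counts in all, against 3426 for HSPA8.

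The ratio of HSP90AA1 to HSPA8 counts, a pair chosen after its values were seen, was 1.01 and 1.12 in batch A and 1.71, 1.7 and 1.56 in B1, B2 and B3. The highest batch A interval ended at 1.23 and the lowest batch B interval began at 1.42. At nearly equal depth, A2 had 894 counts of HSP90AA1 and 884 of HSPA8, and B3 had 1052 and 673. No test was made of this ratio.

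**Figure D3:**
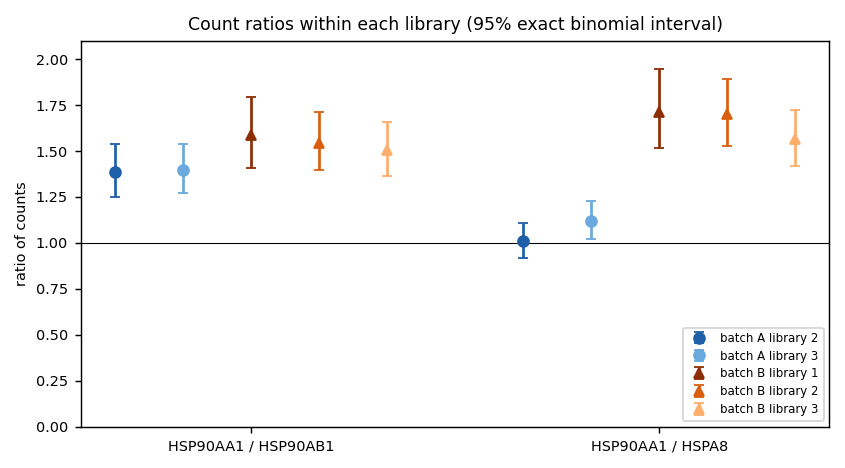
Ratio of counts of HSP90AA1 to HSP90AB1 and to HSPA8 in each library, with 95% exact binomial intervals that cover counting error only. The intervals of all libraries overlap for HSP90AB1, and those of batch A lie below those of batch B for HSPA8, from 1.01 and 1.12 to between 1.56 and 1.71.

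HSPA1A and HSPA1B are neighbouring genes that encode the stress-inducible HSP70. HSPA1B had 294 and 320 counts in A2 and A3 against 155, 254 and 312 in B1, B2 and B3, while HSPA1A had 2 and 1 in A2 and A3 against 0, 1 and 1 in B1, B2 and B3. HSPA1A thus took 0.373% of the 1340 counts of the pair (95% exact Clopper-Pearson interval 0.121 to 0.869%). The promoters printed above were identical at 235 of 249 positions when shifted by 1 base, and each held the same motif letters once. Of the windows of 50 bases in the HSPA1A transcript of GENCODE 29, 72.6% occurred exactly in HSPA1B transcripts. None of the first 200 windows of that transcript did. The first 50 bases of HSPA1A in RefSeq matched HSPA1B at 42 positions, at the best of several shifts. How reads that fit both genes were assigned is not given in the sources used here, so the split between the rows is uncertain. Their sum is not affected by an exchange of reads within the pair, but would be too low if reads that fit both genes were left out.

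HSPA1A and HSPA1B together stood at 431 and 400 CPM in A2 and A3 against 415, 443 and 457 CPM in B1, B2 and B3, with overlapping groups. The log2 fold change of HSPA1B was 0.12 (SE 0.11, edgeR adjusted p = 0.648). The 95% interval of that log2 fold change ran from -0.09 to 0.32. Without heat or another named stress, HSPA1B ranked 361st among all gene rows by CPM. Per kb of transcript it stood at 170 CPM per kb against 543 for the constitutive HSPA8. Both values for HSPA1B depend on how reads that fit both genes were treated.

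HSPA4 and HSPH1 belong to the HSP110 family, which releases nucleotide from HSP70. HSPA4 stood at 169 and 172 CPM in A2 and A3 against 198, 198 and 222 CPM in B1, B2 and B3, without overlap, at a log2 fold change of 0.31 (SE 0.13, edgeR adjusted p = 0.185). HSPH1 stood at 206.7 CPM in both batch A libraries and at 185, 212 and 242 CPM in batch B, at 0.10 (edgeR adjusted p = 0.776). HSPA14, an atypical HSP70 found with ribosomes, ranged from 104 to 141 CPM over all libraries. The HSP70 and HSP110 genes together stood at 2235 and 2047 CPM in A2 and A3 against 1972, 1944 and 2042 CPM in B1, B2 and B3.

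**Figure D4:**
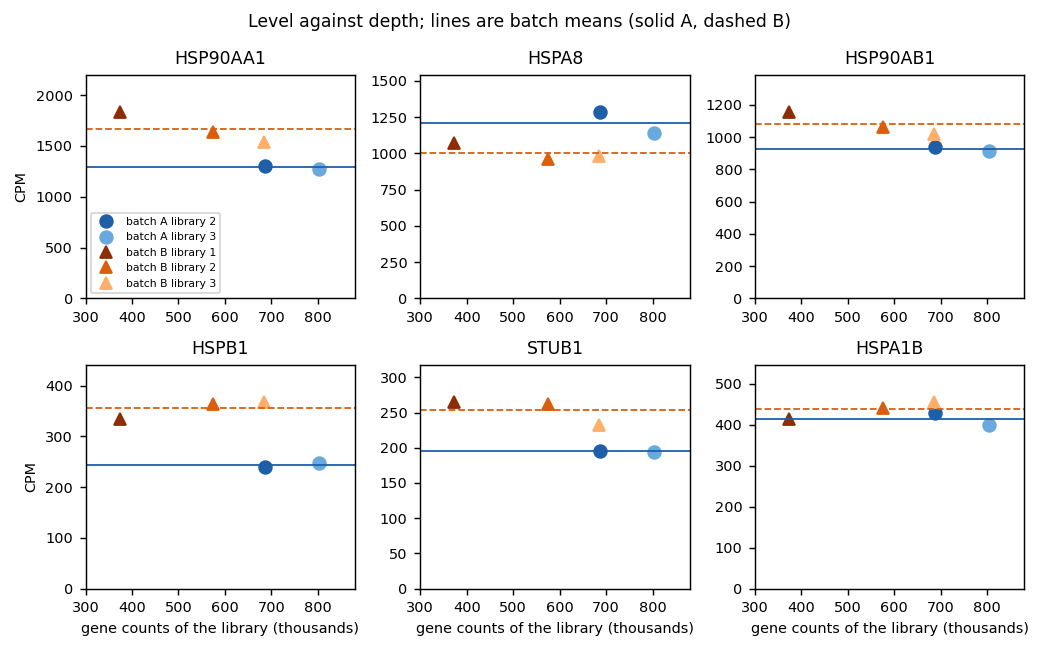
CPM against the gene counts of each library for HSP90AA1, HSPA8, HSP90AB1, HSPB1, STUB1 and HSPA1B, with batch means as lines. HSP90AA1 lies at 1836 CPM in B1 and 1535 CPM in B3, HSPB1 stays between 335 and 368 CPM there, and HSPA1B overlaps between batches.

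The J-domain proteins, which deliver clients to HSP70, showed 0 called members among 6, against 4.2% of all tested genes. DNAJA1 was the most abundant by CPM, at 429 and 386 CPM in A2 and A3 against 372, 388 and 377 CPM in B1, B2 and B3. DNAJC8, a J-domain protein linked to pre-mRNA splicing, followed with 326 and 310 CPM against 324, 299 and 353 CPM. Per kb of transcript DNAJC8 was ahead of DNAJA1, at 183 against 164 CPM per kb. DNAJB1, the heat-inducible HSP40, stood at 138 and 163 CPM in A2 and A3 against 187, 174 and 136 CPM in B1, B2 and B3, with overlapping groups and a log2 fold change of 0.12 (edgeR adjusted p = 0.76). The ratio of DNAJA1 to DNAJA2 counts, both class A J-domain proteins, was 3.99 and 3.37 in A2 and A3 against 4.79, 4.21 and 3.11 in B1, B2 and B3, and the libraries of the batches overlapped. DNAJB6 and DNAJC7 had log2 fold changes of -0.04 and 0.28. DNAJC7 was the J-domain gene whose batch B libraries all exceeded batch A, by as little as 83.2 against 81.5 CPM. It overlaps CNP and NKIRAS2 on the opposite strand in GENCODE 29, with 495 and 326 counts against 257 for DNAJC7, so its counts are uncertain if strand was not used.

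Among the cofactors of HSP70, STUB1 had 134 and 156 counts in A2 and A3 against 99, 151 and 159 in B1, B2 and B3. Its level was 195 and 194 CPM against 265, 262 and 232 CPM, and the batches did not overlap. The means were 195 ± 0.603 CPM (SD, n = 2) and 253 ± 18.3 CPM (SD, n = 3). The log2 fold change was 0.39 (SE 0.12, edgeR adjusted p = 0.046). The call was lost without A2 (edgeR adjusted p = 0.181), A3 (0.311), B1 (0.106) or B2 (0.19). STUB1 transcripts have 63.1% GC, and with GC and length trends removed its log2 fold change was 0.19 (edgeR adjusted p = 0.525). An exon of STUB1 overlaps JMJD8 on the opposite strand in GENCODE 29, and whether counting used strand is not given in the sources used here. JMJD8 had 206 counts over all libraries and a log2 fold change of -0.03.

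BAG1 and BAG3 are nucleotide exchange factors of HSP70, of which BAG1 links to the proteasome and BAG3 to selective autophagy. BAG1 had 56 and 78 counts in A2 and A3 against 26, 39 and 41 in B1, B2 and B3, and BAG3 had 16 and 25 against 16, 19 and 31. As levels, BAG1 was at 81.5 and 97.1 CPM against 69.6, 67.8 and 59.8 CPM, below batch A in every batch B library. BAG3 was at 23.3 and 31.1 CPM against 42.8, 33.0 and 45.2 CPM, above batch A in every batch B library. Their log2 fold changes of -0.44 (SE 0.20) and 0.57 (SE 0.31) did not pass the test (edgeR adjusted p = 0.237 and 0.352). ST13, the HSP70-interacting protein HIP, which slows the release of ADP, was the most abundant cofactor by CPM, with 288 and 268 CPM in A2 and A3 against 235, 240 and 299 CPM in B1, B2 and B3, overlapping groups and a log2 fold change of -0.06. Per kb of transcript STUB1 was ahead of ST13, at 156 against 117 CPM per kb.

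HSF1, the main transcription factor of the heat shock response, had 68 and 69 counts in A2 and A3 against 41, 34 and 62 in B1, B2 and B3, or 99.0 and 85.9 CPM against 110, 59.1 and 90.5 CPM. HSF2, its relative, had 49 and 32 counts against 15, 26 and 42, or 71.3 and 39.8 CPM against 40.1, 45.2 and 61.3 CPM. For both factors the batches overlapped, and the log2 fold changes were -0.11 (SE 0.19) and -0.09 (SE 0.24). HSF1 overlaps DGAT1 on the opposite strand, which had 105 counts over all libraries against 274 for HSF1, so reads from the overlap cannot be told apart if strand was not used.

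In every library the 8 subunits of the CCT chaperonin lay within 2.13-fold of each other. Of 8 tested subunits 0 were called by edgeR, against 4.2% of all tested genes. An unadjusted p under 0.05 in edgeR was found for 0 of them, against 16.4% of all tested genes. DESeq2 called 0 of them as well, against 0.704% of the genes it gave an adjusted p. The log2 fold changes ran from -0.08 for CCT8 to 0.17 for CCT3, with 7 of 8 above 0 and a median of 0.08. Of all tested genes 50.4% were above 0. In sum the subunits stood at 4714 and 4655 CPM in A2 and A3 against 4983, 4886 and 4778 CPM in B1, B2 and B3, without overlap. In CCT2, CCT3 and CCT7, 37.5% of the subunits, every batch B library exceeded batch A, against 13.5% of all tested genes. For 0 subunits was every batch B library below batch A, against 17.8% of all tested genes.

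CCT7 had 773 and 783 CPM in A2 and A3 against 835, 822 and 794 CPM in B1, B2 and B3. CCT4 had 793 and 730 CPM against 805, 792 and 756 CPM. These subunits took the top places by CPM in every library, with CCT4 first in A2 and CCT7 first in the others. CCT3 or CCT8 came last in each. The highest subunit exceeded the lowest by 1.73-fold to 2.13-fold, and the coefficient of variation over the subunits was 20.2% to 23.8% per library. Per kb of transcript CCT7 was still first at 479 CPM per kb, TCP1 (CCT1) second at 360, and CCT6A last at 206, a range of 2.33-fold. Within batches the median chi-square statistic per degree of freedom over the 8 subunits was 0.601, against 1.05 over all tested members. TCP1 shares exon sequence with ACAT2 on the opposite strand, which had 878 counts against 1969 for TCP1.

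Prefoldin, a hexamer of 6 different subunits, was uneven over its subunits. PFDN5 had 457 and 479 counts in A2 and A3 against 197, 326 and 366 in B1, B2 and B3, while PFDN6 had 12 and 11 against 7, 15 and 12. PFDN5 thus exceeded PFDN6 by 21.7-fold to 43.5-fold within a library, and by 47.9-fold per kb of transcript over all libraries. VBP1 (prefoldin 3) was next by mean CPM, at 278 and 280 CPM in A2 and A3 against 244, 202 and 244 CPM in B1, B2 and B3, and PFDN2 was next per kb, at 336 against 161 CPM per kb. PFDN6 overlaps WDR46 and RGL2 on the opposite strand in GENCODE 29, with 169 and 43 counts against 57 for PFDN6, so its low count is uncertain in the same way as that of HSF1.

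Of the 6 prefoldin genes 0 were called by edgeR, against 4.2% of all tested genes. DESeq2 called 0 as well, against 0.704% of the genes it gave an adjusted p, which genes of low count may have lacked. VBP1, 1 of 6, had an unadjusted p under 0.05 in edgeR, against 16.4% of all tested genes. The log2 fold changes of the prefoldin genes were below 0 for 5 of 6, with a median of -0.23, against 0.00 over all tested genes. Of all 9215 tested genes, 4567 were below 0. PFDN5 stood at 665 and 596 CPM in A2 and A3 against 527, 566 and 534 CPM in B1, B2 and B3, and PFDN4 at 127 and 143 CPM against 96.3, 104 and 124 CPM. In these and in VBP1, 3 of 6, every batch B library was below batch A, against 17.8% of all tested genes. In 1 of 6, PFDN6, every batch B library was above batch A, against 13.5% of all tested genes. The log2 fold changes were -0.19 for PFDN5, -0.27 for PFDN4 and -0.26 for VBP1 (edgeR adjusted p = 0.386, 0.398 and 0.223). PFDN1 was at -0.26 and PFDN2 at -0.12 with overlapping batches. PFDN6, the exception, was at 0.45 with an SE of 0.44.

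In sum the prefoldin genes stood at 1479 and 1352 CPM in A2 and A3 against 1194, 1229 and 1214 CPM in B1, B2 and B3. The transcripts of VBP1 and PFDN4 are poor in G and C, at 36.4% and 35.3%. With GC and length trends removed the prefoldin median was -0.16, and without A2 it was -0.10. The median for CCT was 0.11 in both settings. No test of the difference between the complexes was made.

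**Figure D5:**
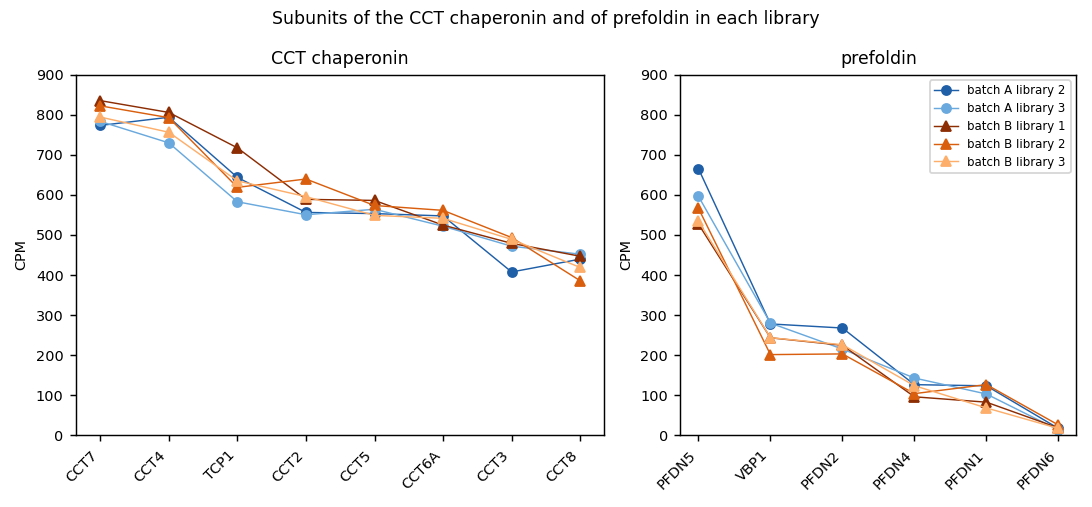
CPM of the CCT subunits (left) and of the prefoldin subunits (right) in each library, ordered by mean level, with circles for batch A and triangles for batch B. The CCT subunits lie between 386 and 835 CPM, and prefoldin runs from PFDN5 at 527 to 665 CPM down to PFDN6 at 13.7 to 26.1 CPM.

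Other genes of cytosolic folding were read from 3 lists. Of 65 further chaperones and co-chaperones 46 were tested, of which 2 rose, against 2.15% of all tested genes, and 0 were called as lower. The median log2 fold change of the list was -0.03. FKBP8, a membrane-anchored immunophilin, had 32 and 43 counts in A2 and A3 against 26, 59 and 65 in B1, B2 and B3, at 0.88 (SE 0.22, edgeR adjusted p = 0.00307). HSPBP1, a nucleotide exchange factor of HSP70, had 49 and 65 counts against 39, 66 and 81, at 0.59 (SE 0.18, edgeR adjusted p = 0.037). With GC and length trends removed FKBP8 was at 0.61 (edgeR adjusted p = 0.0969) and HSPBP1 at 0.33 (0.414), and their transcripts have 65.6% and 65.4% GC. The most abundant of the list were NACA and BTF3, which form the nascent chain complex at the ribosome, and CACYBP, at 1223, 852 and 415 CPM on average, with log2 fold changes of 0.09, 0.06 and -0.13. HSPA6, an HSP70 that is known to appear only after strong stress, had 2 counts in B1 and 0 in the other libraries. CRYAB and HSPA1L had 0 counts in every library, which allows up to 3.74 CPM in the deepest and 8.03 CPM in the shallowest.

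Of 21 partners of CCT and prefoldin 20 were tested. Of these 1 rose, against 2.15% of all tested genes, and 0 were called as lower. The median of this list was 0.07. ARL2, a small GTPase that acts with the tubulin cofactors, had 59 and 85 counts in A2 and A3 against 68, 84 and 103 in B1, B2 and B3, at 0.72 (SE 0.16, edgeR adjusted p = 0.000657), and at 0.55 with GC and length trends removed (0.0226). TBCA, the tubulin cofactor of highest count, was at 536 ± 32.6 CPM over batch A (SD, n = 2), against 448 ± 14.4 CPM over batch B (SD, n = 3), with a log2 fold change of -0.23 (edgeR adjusted p = 0.252). RUVBL1 and POLR2E followed, at log2 fold changes of -0.11 and -0.02.

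Of 24 regulators and other heat-inducible genes 17 were tested by edgeR and 0 were called, against 4.2% of all tested genes. The only gene of this list with an unadjusted p under 0.05 was HSBP1 (5.88% of the 17, against 16.4% of all tested genes). HSBP1, a negative regulator of HSF1, was at a log2 fold change of -0.22 (edgeR adjusted p = 0.281). UBB, a polyubiquitin gene, was at 1355 ± 14.8 CPM over batch A (SD, n = 2), against 1358 ± 55.1 CPM over batch B (SD, n = 3), at 0.03. The mitochondrial chaperonin genes HSPD1 and HSPE1, which share a promoter region, were at 0.05 and 0.20.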

How the data were processed

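The authors deposited 1 table of raw counts per gene symbol, 24549 rows by 5 libraries. Its spike-in rows were left out. The tools cutadapt 1.2.1 and STAR 2.4.0a and the builds hg19 and GRCh37 are named, without their roles, per the submitters' processing notes. The template-switching primer carried molecular identifiers. Whether they were collapsed, which counter and annotation were applied, and whether strand was used: not given in the sources used here. Each column was placed in a batch by the run name that it and the titles begin with.

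The batches were compared in R 4.3.3 by the quasi-likelihood test of edgeR 4.0.16, after TMM scaling and filterByExpr and with no covariate, which tested 9215 genes holding 97.1% of gene counts. A Benjamini-Hochberg adjusted p under 0.05 over all tested genes was a call. Each standard error is the size of the log2 fold change over the square root of its F. A fit with 1 batch A library assumes that it varies like batch B. DESeq2 1.42.0 and limma 3.58.1 served as alternatives. The test was also run on simulated data, and no statement here rests on that run. CPM used gene counts without spike-ins. Zero counts were given a limit of 3 counts. Transcript lengths, GC content and exon overlaps came from GENCODE release 29, matched by symbol. It is on another build than the data, so none of its coordinates are given.

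The 42 members, role groups and lists were chosen with earlier results of these data known. Values of every library are given for called members, the 2 most abundant of each role group, the best-known inducible members and those under the low-count filter. From the lists, called genes and the 3 most abundant are named. Members named beyond that, HSPA6, CRYAB, HSPA1L and HSBP1 were singled out after their values were seen.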

Additional observations from a re-analysis of the deposited data

How the results depend on the processing

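HSPB1 was called in 14 of the 15 alternative fits, HSP90AA1 in 8 and STUB1 in 3, and all kept their sign in all 15. The exception for HSPB1 was DESeq2 on the filtered genes (0.58, adjusted p = 0.0644). The number of members called, 3 in the report, was 0 with DESeq2, 1 (HSPB1) with DESeq2 on all rows with a count, 5 with a mean count of at least 20, and 2 after thinning (1 higher, 1 lower). It was 1 to 4 when a library was left out. The number of all genes called, 387 in the report, was 41 with DESeq2, 104 with DESeq2 on all rows, 164 after thinning and 138 to 333 when a library was left out. STUB1 was also lost with library totals (edgeR adjusted p = 0.0595), limma-voom (0.0533), no filter on low counts (0.158) and thinning (0.215), and HSP90AA1 with thinning (0.0556) and DESeq2 (0.0914, and 0.0627 on all rows). The sign turned for HSPH1 after thinning (-0.083), for HSPA1B with GC and length trends removed (-0.014), and for HSF1 when a library was left out (-0.27 to 0.11). Of 373 alternative values of the 25 other members, 21 had the opposite sign and 0 were called. The cause of these changes was not tested. The numbers 2 and 3 end columns of both batches, but the labels number batch A 1 and 2 and name no pairing. Over 9215 genes the deviations of same-numbered libraries had a correlation of -0.00344. A replicate block on these numbers was added after the data were seen and left 1 residual degree of freedom. It called 394 of 9215 genes and 4 of 41 members (3 higher, 1 lower). The members were HSPB1 (0.59), HSP90AA1 (0.31), HSP90AB1 (0.18) and HSPA8 (-0.30), and STUB1 was not called (edgeR adjusted p = 0.0962). Members of low count, such as BAG3, HSF2 and PFDN6, had standard errors of 0.24 to 0.44. Differences of that size were not detectable at this depth. Larger ones could also go uncalled, as for BAG3 at 0.57 (edgeR adjusted p = 0.352). Among members of higher count, FKBP4 was not called at 0.37 with an SE of 0.12.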
